A study of Oryza sativa Japonica Group with 15 samples.

Results

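Short cis contacts, pairs of DpnII restriction fragments on one chromosome whose midpoints lay at least 1 kb and less than 20 kb apart, were described in single rice cells. All distinct fragment pairs in that range were taken from every cell, which gave 5731 short contacts among 28358 distinct fragment pairs in 15 cells. The rest comprised 17117 pairs under 1 kb, 1066 cis contacts of 20 kb or more and 4444 contacts between chromosomes (trans). The members were chosen by the measured separation, so their number and their decay with separation are given as a description. The cells were Oryza sativa Japonica, cultivar Dongjin, from plants of a greenhouse or paddy field. The 4 egg cells came from florets that had not been pollinated and the 4 sperm cells from stamens. The 3 unicellular zygotes were taken from florets 6 to 8 hours after pollination, and the 4 shoot cells from seedlings at 12 days after germination. Each cell was isolated by micropipette, fixed in 2% formaldehyde, cut with DpnII, ligated, amplified as a whole genome by multiple displacement and sonicated to between 150 and 500 bp. The labels tie no cell to a plant. Each cell type was therefore treated as 1 sample, with values per cell, SDs over cells and no test between groups.

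Hi-C records which DNA segments lay close enough in a fixed nucleus to be ligated, and along a flexible chromatin fibre neighbouring segments meet more often than distant ones. At the scale of a gene and its surroundings a read pair can also come from DNA that was never cut, whose reads point inward, or from a piece whose own ends were joined to a circle, whose reads point outward. Ligation of separate fragments gives the inward, outward, plus plus and minus minus combinations with equal frequency. Egg and sperm are haploid, the zygote is the diploid product of their fusion, and shoot cells are the diploid somatic reference.

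The files held 2236 to 17291 read pairs per cell, of which 197 to 4108 fell on short contacts. Reads carry no molecular identifiers, so read pairs are not independent molecules and the exact (Clopper-Pearson) 95% intervals given here cover counting error only. Shoot cells 3 and 4 were registered apart from the other 13 cells and shared fragment pairs, as detailed with recurrence; the main shoot cell means are therefore also given without them. No read pair of a short contact was found with identical positions in another cell (0 pairs).

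The number of short contacts varied widely between cells of a group in eggs, sperm and shoot cells, and less between the 3 zygotes. Eggs 1 to 4 held 309, 150, 1183 and 262, with a mean of 476 ± 476 (SD, n = 4). Sperm 1 to 4 held 953, 284, 214 and 150, a mean of 400.2 ± 373 (SD, n = 4). Egg 3 and sperm 1 each stood far above the other cells of their group, and the means were 240.3 without egg 3 and 216 without sperm 1. Zygotes 1 to 3 held 163, 186 and 99 (149.3 ± 45.1, SD, n = 3). Shoot cells 1 to 4 held 807, 221, 663 and 87 (444.5 ± 345, SD, n = 4), and the mean of shoot cells 1 and 2 was 514. All 4 groups overlapped in range. The number moved with the count of pairs under 1 kb in the same cell, a measure of the depth of its library; the part of depth was not tested. Across the 15 cells the Spearman correlation of both numbers was 0.97, a description of values that come from the same libraries. For every 100 pairs under 1 kb eggs had 32.0 ± 8.58 short contacts, sperm 32.8 ± 8.57, zygotes 28.0 ± 0.94 and shoot cells 27.7 ± 7.40. The highest ratios were 45.3 in sperm 1 and 41.7 in egg 3 and the lowest was 17.9 in shoot cell 4.

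**Figure D1:**
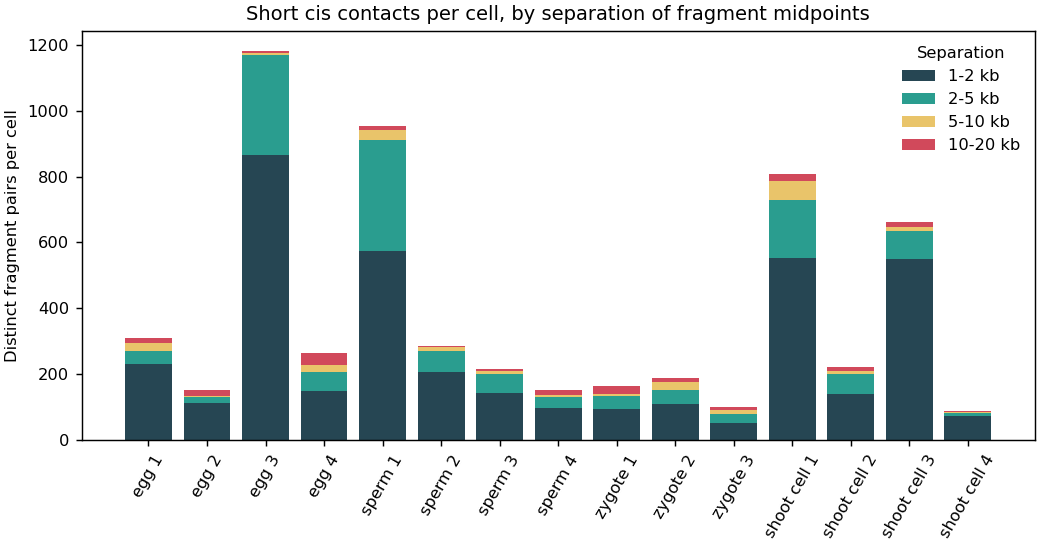
Number of distinct short fragment pairs in each cell (vertical axis), divided by separation of the fragment midpoints (colours). Egg 3 (1183), sperm 1 (953), shoot cell 1 (807) and shoot cell 3 (663) are the tallest bars, and pairs of 1 to 2 kb make up most of every bar.

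Among contacts of 1 kb or more, trans contacts included, sperm had on average the largest short share and zygotes the smallest. The share was 70.96%, 53.3%, 40.8% and 53.6% in sperm 1 to 4, a mean of 54.6% ± 12.41 (SD, n = 4). It was 42.3%, 31.7% and 23.0% in zygotes 1 to 3, a mean of 32.3% ± 9.7 (SD, n = 3). Zygote 1 lay above sperm 3, so the ranges overlapped. Eggs spanned 22.1% in egg 2 to 67.9% in egg 3, with 36.3% in egg 1 and 39.5% in egg 4 (41.5% ± 19.2, SD, n = 4). Shoot cells 1 to 4 had 64.3%, 40.6%, 60.6% and 26.4% (48.0% ± 17.8, SD, n = 4), and the mean of shoot cells 1 and 2 was 52.5%. The counting interval of a single cell, such as 68.5% to 73.4% in sperm 1 and 19.1% to 27.2% in zygote 3, was narrow beside the spread between cells. Within chromosomes the short contacts were the majority of every cell, from 59.6% of cis contacts of 1 kb or more in shoot cell 4 to 92.5% in egg 3.

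Most short contacts lay at the lower end of the range. Pairs of 1 to 2 kb numbered 3937, those of 2 to 5 kb 1355, those of 5 to 10 kb 239 and those of 10 to 20 kb 200. At the limits of the rule, 1005 pairs lay at 900 to 1000 bp and 827 at 1000 to 1100 bp, and 12 lay at 19 to 20 kb against 9 at 20 to 21 kb. The lower limit thus cut through the dense part of the distribution and the upper one through its sparse end. The share of 1 to 2 kb was 55.3% ± 3.41 in zygotes, 66.0% ± 5.06 in sperm, 69.5% ± 8.66 in eggs and 74.0% ± 9.62 in shoot cells. Every zygote lay below every sperm cell (51.5% to 58.1% against 60.3% to 72.5%) and every shoot cell (63.3% to 82.7%, of which shoot cells 1 and 2 had 68.4% and 63.3%), whereas egg 4 (56.5%) lay among the zygotes. The median separation ranged from 1341 bp in shoot cell 3 to 1956 bp in zygote 3.

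Contact density per possible pair of positions fell steeply with separation, and in a single fit over 1 to 20 kb the zygotes had the shallowest mean. The decay slope, the exponent of that density from 1 to 20 kb over 8 logarithmic classes, was -1.93, -2.10 and -1.92 in zygotes 1 to 3, a mean of -1.98 ± 0.10 (SD, n = 3). Eggs 1 to 4 had -2.55, -2.40, -3.01 and -1.86 (-2.45 ± 0.47, SD, n = 4). Egg 4 was thus the shallowest and egg 3 among the steepest of all cells. Sperm 1 to 4 had -2.46, -2.92, -2.60 and -2.14 (-2.53 ± 0.32, SD, n = 4). Shoot cells 1 to 4 had -2.55, -2.38, -3.23 and -3.13 (-2.82 ± 0.42, SD, n = 4), and the mean of shoot cells 1 and 2 was -2.47. Sperm 4 and zygote 2 differed by less than the fit errors of 0.12 and 0.11. All 3 zygotes were shallower than every sperm and shoot cell, but the zygotes also held the fewest short contacts on average.

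The fall was not a single power of separation, and zygotes were not the shallowest when the range was divided at 5 kb. From 1 to 5 kb eggs averaged -3.05 ± 0.51, sperm -2.52 ± 0.39, zygotes -2.56 ± 0.16 and shoot cells -3.16 ± 0.55. From 5 to 20 kb it averaged -0.80 ± 0.91, -2.17 ± 1.46, -1.36 ± 1.07 and -1.56 ± 0.89 in the same order, so the shallowest means were those of sperm below 5 kb and of eggs above it. The exponent was shallower above 5 kb than below in 12 of 15 cells, and in 10 of the 11 cells with at least 20 contacts above 5 kb. The cells with fewer were egg 3 (12 contacts), sperm 2 (14), sperm 3 (13) and shoot cell 4 (6), whose exponents above 5 kb rest on almost empty classes. In 7 of 15 cells the class of 10 to 20 kb held at least as many contacts as that of 5 to 10 kb. Egg 4 had 36 against 21, egg 2 had 18 against 3 and zygote 1 had 23 against 8. Of the 200 contacts of 10 to 20 kb, 26 lay at 1 place on chromosome 1, 14 at 1 on chromosome 9 and 11 at 1 on chromosome 12. The places on chromosomes 9 and 12 held 15 of the 36 of egg 4, 3 of the 18 of egg 2 and 0 of the 23 of zygote 1. At the place on chromosome 1 egg 2 and zygote 1 had 0 short contacts. Egg 4 had 8 there, some of them at 10 to 20 kb, which the 15 leave out. Slopes without these places were not computed. Egg 3 had 6 in each of the classes of 5 to 10 kb and 10 to 20 kb, after 867 at 1 to 2 kb and 304 at 2 to 5 kb.

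**Figure D2:**
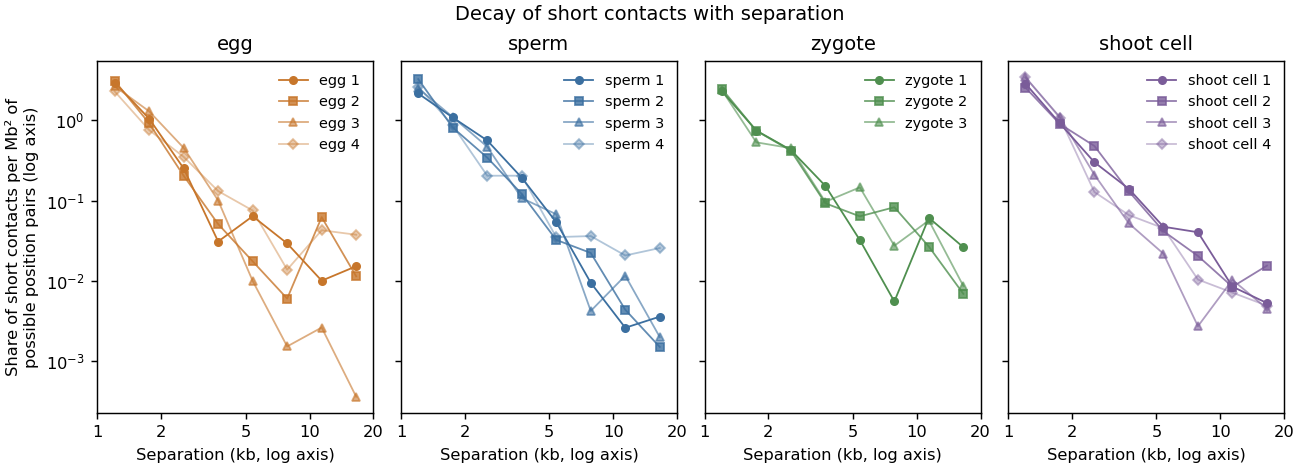
Share of the short contacts of a cell per square megabase of possible position pairs (vertical, log axis) against separation in kb (horizontal, log axis), one line per cell and one panel per group; classes with 0 contacts are not drawn. The lines lie close together below 2 kb and spread with separation, with egg 3 (slope -3.01) lowest and egg 4 (-1.86) and zygote 1 (-1.93) flattening.

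Outward reads were the commonest combination in most cells, and their share had the widest range between cells. A contact was counted for each strand combination in which it was seen. Outward pairs made up 34.9%, 29.5%, 72.7% and 31.0% in eggs 1 to 4 and 20.3%, 48.3%, 29.7% and 45.1% in sperm 1 to 4. They made up 31.0%, 27.6% and 41.3% in zygotes 1 to 3 and 44.9%, 45.8%, 48.8% and 23.5% in shoot cells 1 to 4. The counting interval lay above the even share of 25% in 9 of 15 cells and below it in 1, sperm 1 (18% to 22.7%). The egg mean was 42.0% ± 20.6 (SD, n = 4), and 31.8% without egg 3. Outward reads were the commonest in 12 of 15 cells, counting egg 4, where inward reads had the same share of 31.0%. The exceptions were sperm 1, zygote 2, where inward reads had 29.0%, and shoot cell 4. In shoot cell 4 inward reads made up 51.0% (interval 40.7% to 61.3%) against 21.6% to 26.5% in the other shoot cells. The skew of shoot cell 4 was not limited to short contacts. Its trans contacts were 44.3% inward, 32.8% plus plus, 11.5% outward and 11.5% minus minus (192 combinations).

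Reads of the same strand can come from neither uncut nor circular DNA in its original order, so their share was set against the 50% of even ligation. Whether the amplification gave same-strand reads as well was not tested. It was 40.9%, 44.9%, 13.2% and 38.1% in eggs 1 to 4, a mean of 34.3% ± 14.3 (SD, n = 4). Sperm 1 to 4 had 56.3%, 29.6%, 45.4% and 26.3% (39.4% ± 14.0, SD, n = 4). Zygotes 1 to 3 had 43.7%, 43.5% and 35.7% (40.9% ± 4.53, SD, n = 3), and shoot cells 1 to 4 had 33.5%, 27.7%, 27.7% and 25.5% (28.6% ± 3.44, SD, n = 4). The interval lay below 50% in 10 of 15 cells and above it in 1, sperm 1 (53.4% to 59.2%). Sperm 1 and egg 3, the deepest gamete libraries in short contacts, thus stood at opposite ends. Every shoot cell was below every zygote, with 30.6% as the mean of shoot cells 1 and 2. The counting intervals of shoot cell 1 (30.6% to 36.6%) and zygote 3 (27.4% to 44.7%) overlapped. Plus plus and minus minus pairs were similar in number in most cells, such as 333 and 320 in sperm 1 and 153 and 175 in shoot cell 1. Egg 1 had 55 and 88, and shoot cell 4 had 23 and 2. Among the trans contacts of shoot cell 4, plus plus pairs also outnumbered minus minus pairs, with 63 against 22.

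The imbalance of strands was tied to separation. Over all cells, inward pairs made up 65.4% of combinations under 1 kb, 24.98% at 1 to 2 kb and 15.5% at 2 to 5 kb. Of the 1193 inward combinations at 1 to 2 kb, 813 had reads that began within 500 bp of each other. At 2 to 5 kb 11 of 243 did. The 24.98% is therefore not to be read as an even share from ligation. Outward pairs made up 23.4% under 1 kb, 44.5% at 1 to 2 kb and 44.7% at 2 to 5 kb. Without egg 3 the outward share was 38.4% at 1 to 2 kb and 34.7% at 2 to 5 kb. In egg 3 itself it rose from 69.7% at 1 to 2 kb (646 of 927) to 83.3% at 2 to 5 kb (270 of 324). The same-strand share was 11.2% under 1 kb, 30.5% at 1 to 2 kb and 39.8% at 2 to 5 kb. From 5 to 20 kb the combinations of all cells together were near the even share: 50.9% of 493 combinations were on the same strand (interval 46.4% to 55.4%), 24.1% inward and 24.9% outward. Within that range the minus minus share was higher at 10 to 20 kb, 75 of 235 combinations (31.9%), of which 17 came from 1 place on chromosome 1 described with recurrence. By cell type the same-strand share at 5 to 20 kb was 51.3% (eggs), 48.4% (sperm), 51.6% (zygotes) and 51.7% (shoot cells), and it was 50.3% among trans contacts. Sperm departed from even shares in the opposed combinations, with 35.5% outward and 16.1% inward of 93 combinations. At 2 to 5 kb the cell types had 22.1% (eggs), 53.7% (sperm), 48.4% (zygotes) and 36.5% (shoot cells). Egg 3, with 324 of the 448 egg combinations, had 10.8%. Eggs 1, 2 and 4 had 48.8%, 61.1% (of 18 combinations) and 50.8%, so the low egg value came from egg 3. Shoot cell 2 had 27.9% and shoot cell 3 29.1%. Without egg 3 the share over all cells was 47.3%, of which sperm 1 gave 403 of 1245 combinations. In sperm 1 the same-strand share was 56.5% at 1 to 2 kb and 57.3% at 2 to 5 kb.

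**Figure D3:**
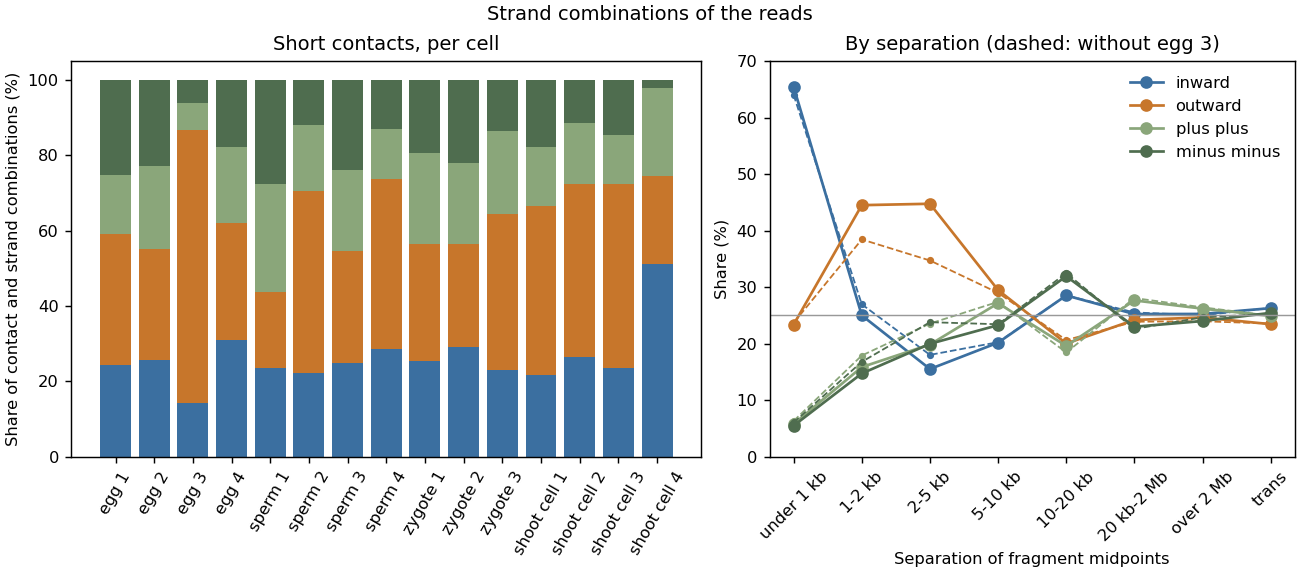
Left, share of the 4 strand combinations among short contacts in each cell (percent, stacked; colours as in the key on the right); right, the shares by separation over all cells (solid) and without egg 3 (dashed), with the even share of 25% as a grey line. Outward reads fill 72.7% of egg 3, and from 5 to 10 kb on the curves lie around 25%, with minus minus at 31.9% at 10 to 20 kb.

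Short contacts of different strand combinations also differed in where their reads lay within the fragments. In every read pair of a short contact the distances from both reads to the next fragment end summed to between 100 and 2000 bp, and the same limits held for far and trans contacts. No pair joined a fragment to itself (0) or to its direct neighbour (0). Inward pairs whose reads began within 500 bp of each other, the upper length of the sheared DNA, formed 11.7% of short contacts in egg 3 to 25.3% in shoot cell 4. The group means differed by less than the SD between cells: eggs had 15.4% ± 2.60, sperm 16.5% ± 2.09, zygotes 15.6% ± 1.52 and shoot cells 16.9% ± 5.73. At least 1 aligned read ran more than 6 bp past the end of its own fragment in 51.1% of short read pairs. This share was 80.0% for inward, 37.8% for outward, 49.97% for plus plus and 48.1% for minus minus pairs. It was 81.4% for pairs under 1 kb, 38.9% for far cis contacts and 41.3% for trans contacts, so in this measure outward short pairs lay near far contacts and inward ones near pairs under 1 kb. Across cells it ranged from 44.0% in shoot cell 2 to 67.9% in zygote 1, with a group mean of 61.3% ± 7.85 in zygotes and 51.3% to 53.1% in the other groups. The median summed distance was 248 bp for inward and 781 bp for outward pairs.

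The number of reads behind a contact was low, and only its mean was highest at 10 to 20 kb. A short contact was seen in 3.88 read pairs on average, with a median of 1, and 48.5% had at least 2. The means were 4.01 at 1 to 2 kb, 3.38 at 2 to 5 kb, 3.49 at 5 to 10 kb and 5.18 at 10 to 20 kb. The median was 1 in each of these classes. In the same order, 49.3%, 47.8%, 41.8% and 46% of contacts had at least 2 read pairs. The share with at least 2 read pairs was 39.0% in sperm 1 and 43.3% in egg 3, the cells with the most contacts, and 62.7% in shoot cell 3. Fragments of short contacts had a median length of 522 bp, against 276 bp for pairs under 1 kb and 589 bp for trans contacts. Close midpoints leave no room for long fragments, whereas trans pairs have no such limit. The lengths thus follow in part from the rule that sorted the pairs. Between 5.75% (egg 3) and 28.8% (shoot cell 3) of contacts were seen in more than 1 strand combination.

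Along chromosomes the short contacts were placed by their distance from the centromere, with centromere positions known for the rice reference genome; whether these fit the coordinates of the files was not tested. In rice the regions around centromeres are rich in repeats and poor in active genes, and the arms hold most genes. The region within 2 Mb of centromeres covers 12.88% of the length seen. It held 11.7%, 18%, 14.3% and 30.5% of short contacts in eggs 1 to 4 and 16.68%, 9.86%, 39.3% and 8.67% in sperm 1 to 4. It held 11.7%, 11.3% and 6.06% in zygotes 1 to 3 and 9.05%, 12.7%, 8.90% and 4.60% in shoot cells 1 to 4. Sperm 3 and egg 4 stood out at the upper end. Coverage was uneven in the same cells: pairs under 1 kb in the same region made up 28.0% in sperm 3, 16.6% in egg 4 and 7.14% to 16.0% in the other cells.

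Relative to the pairs under 1 kb of the same cell, the near-centromere ratio was 0.98, 1.82, 1.00 and 1.84 in eggs 1 to 4, a mean of 1.41 ± 0.48 (SD, n = 4). Sperm 1 to 4 had 1.24, 0.88, 1.40 and 0.54 (1.02 ± 0.38, SD, n = 4). Zygotes 1 to 3 had 1.01, 1.46 and 0.49 (0.99 ± 0.49, SD, n = 3), and shoot cells 1 to 4 had 0.84, 1.23, 1.25 and 0.35 (0.92 ± 0.42, SD, n = 4; 1.04 in shoot cells 1 and 2). The ratio was above 1 in 9 of 15 cells, and the groups overlapped. Shoot cell 4 and zygote 3 rested on 4 and 6 contacts in that region. Of the 80 such contacts of egg 4, 26 lay at 1 place, chr9:4693345-4731766, which is 1.89 to 1.93 Mb from the centromere position used and so just inside the 2 Mb limit. In a comparison added after seeing the data, that place was left out of short contacts and of pairs under 1 kb. The ratio was then 1.64 in egg 4 and the egg mean was 1.31. At more than 10 Mb from the centromere the ratio was below 1 in 12 of 15 cells. Eggs averaged 0.85 ± 0.19, sperm 0.98 ± 0.047, zygotes 0.64 ± 0.26 and shoot cells 0.97 ± 0.096. All zygotes lay there between 0.34 and 0.82, below every sperm cell (0.91 to 1.03) and every shoot cell (0.85 to 1.05) but not below egg 2 (0.58). At 5 to 10 Mb zygotes had 1.26, 1.11 and 1.79. Of the zygote 3 contacts, 65.7% lay at that distance, 16 of its 99 in 1 megabase of chromosome 9.

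**Figure D4:**
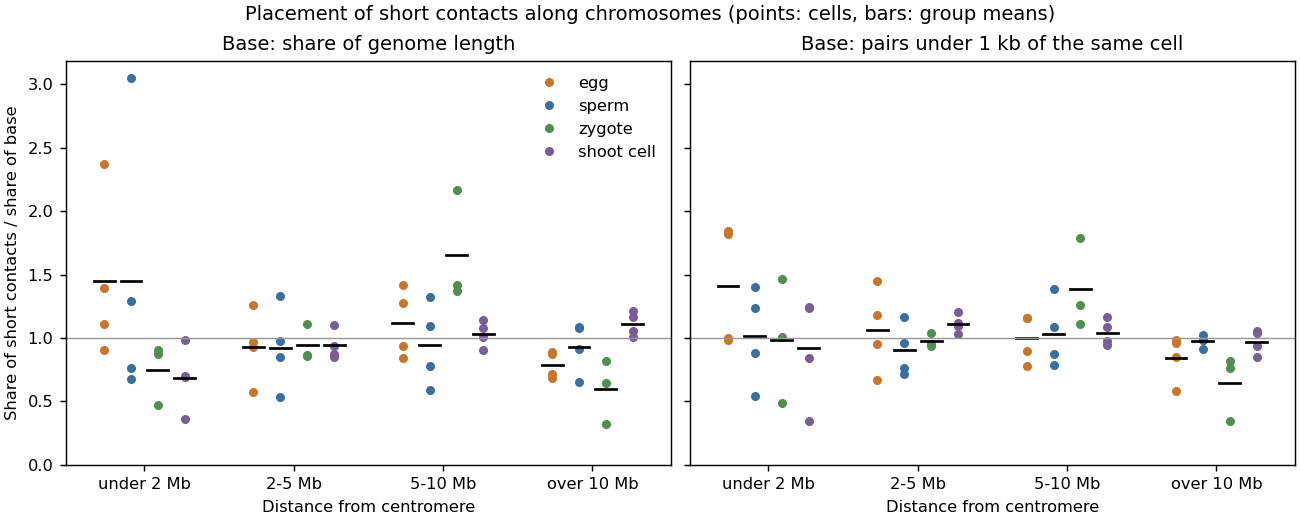
Share of short contacts in 4 classes of distance from the centromere divided by the share of genome length (left) or by the share of pairs under 1 kb of the same cell (right); points are cells, black bars group means and the grey line a ratio of 1. Sperm 3 (3.05) and egg 4 (2.37) stand out near the centromere on the left and move to 1.40 and 1.84 on the right, and zygotes lie low beyond 10 Mb.

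By separation, the share within 2 Mb of centromeres was 12.37% at 1 to 2 kb (interval 11.36% to 13.44%), 18.1% at 2 to 5 kb (16.1% to 20.2%), 13.8% at 5 to 10 kb (9.699% to 18.8%) and 20.5% at 10 to 20 kb (15.1% to 26.8%). At 10 to 20 kb eggs had 32% there (24 of 75 contacts), sperm 30.3% (10 of 33), zygotes 12.2% (5 of 41) and shoot cells 3.92% (2 of 51). Of the 75 egg contacts of 10 to 20 kb, 36 came from egg 4, and all 5 of sperm 3 were near a centromere. Of the 41 contacts of 10 to 20 kb near centromeres, 25 lay at 2 places, 14 at chr9:4693345-4731766 and 11 at chr12:13377652-13403640. Without these places the share at 10 to 20 kb was 9.14% over all cells (16 of 175), 8.93% in eggs (5 of 56) and 25.8% in sperm (8 of 31). Only places near centromeres were left out, which can only lower the share. The place on chromosome 1, with 26 contacts of 10 to 20 kb and 16.8 Mb from the centromere, was kept. Contacts of one place are not independent, and the pooled intervals leave out the spread between cells, so they cover less than the true error. At 2 to 5 kb, egg 3 gave 304 and sperm 1 gave 337 of the 1355 contacts.

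Between chromosomes the density of short contacts was uneven and varied between cells. Chromosome 9 had the highest mean density relative to the whole genome, 1.35 ± 0.66 (SD, n = 15 cells), above 1 in 11 of 15 cells. It ranged from 0.44 in zygote 2 to 2.79 in zygote 3. Chromosome 11 had the lowest, 0.76 ± 0.40, above 1 in 5 of 15 cells and with 0 contacts in zygote 3. Pairs under 1 kb gave 1.15 for chromosome 9 and 0.79 for chromosome 11, so chromosome 9 was also the denser of both in coverage, where chromosome 12 was the densest (1.30). On chromosome 11 the zygote mean was 0.19, against 0.83 in eggs, 1.04 in sperm and 0.85 in shoot cells.

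The spread of short contacts along chromosomes differed between cells. In 372.6 Mb of chromosome length there were 379 bins of 1 Mb, of which 42 (zygote 3) to 312 (egg 3) held a short contact. A cell with fewer contacts can fill fewer bins, and zygote 3 had 99 contacts against 1183 in egg 3. The fullest bin held 2.11% of the contacts of egg 3 but 16.2% of those of zygote 3, 14.0% of sperm 3, 12.6% of egg 4 and 12.3% of zygote 1. Between 36.8% (shoot cell 4) and 83.1% (sperm 1) of short contacts had another of the same cell within 10 kb, and the group means were 66.8% ± 8.09 (eggs), 65.9% ± 14.2 (sperm), 66.6% ± 4.51 (zygotes) and 54.9% ± 16.3 (shoot cells). Of the fragments in short contacts, 8.92% (shoot cell 4) to 32.2% (sperm 1) had at least 2 short partners. The most short partners of a fragment were 17, in sperm 1. Contacts under 5 kb that share a fragment lie within 10 kb of each other in any case. Pairs under 1 kb were not measured for bins or neighbours, and the part of depth and uneven coverage was not tested. Fragments that also took part in a far or trans contact made up 13.05% ± 4.46 of them in eggs and 8.12% ± 4.06 in sperm. In zygotes and shoot cells the means were 12.13% ± 7.06 and 6.31% ± 2.72.

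Few short contacts recurred in another cell. Of 5602 different fragment pairs, 93 (1.66%) were short contacts in at least 2 cells: 75 in 2 cells, 7 in 3, 7 in 4, 3 in 5 and 1 in 8. Pairs under 1 kb recurred in 3.06% of cases, far cis contacts in 2.66% and trans contacts in 4.18%. Among short contacts, recurrence was 1.72% at 1 to 2 kb, 0.745% at 2 to 5 kb, 1.71% at 5 to 10 kb and 7.34% at 10 to 20 kb (13 of 177). Of those 13 pairs, 12 lay at 3 places: 7 on chromosome 1, 4 on chromosome 12 and 1 on chromosome 9. Of the 93 pairs, 61 were found in more than 1 cell type and 32 within 1, and 19 of the 32 were found only in shoot cells 3 and 4. Without these 19 pairs, 13 of 74 were found within 1 cell type.

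Per cell, the share of short contacts found in another cell was 10.0%, 6.67%, 0.930% and 12.6% in eggs 1 to 4, a mean of 7.56% ± 5.04 (SD, n = 4). Sperm 1 to 4 had 1.78%, 3.17%, 1.40% and 8.67% (3.76% ± 3.36, SD, n = 4), and the mean was 2.12% without sperm 4. Zygotes 1 to 3 had 4.91%, 8.06% and 6.06% (6.34% ± 1.60, SD, n = 3). Egg 3 and sperm 1, with the most contacts, were among the lowest, and egg 1, egg 4 and sperm 4 among the highest. Shoot cells 1 to 4 had 1.49%, 3.62%, 3.62% and 25.3% (8.50% ± 11.2, SD, n = 4), and the mean was 2.91% without shoot cell 4. Of the 22 recurrent contacts of shoot cell 4, 19 were shared with shoot cell 3. That overlap was 21.8% of the short contacts of shoot cell 4 and 2.87% of those of shoot cell 3. When these cells were not set against each other, the shoot cell mean was 2.33%, and it was 2.55% in shoot cells 1 and 2 alone. The next largest overlap was that of eggs 1 and 4, with 16 pairs (5.18% of egg 1 and 6.11% of egg 4). Of 21 pairs of cells of one type, 11 shared a short contact, and of 84 pairs of cells of different types, 57 did. The mean number shared went the other way, 2.62 within a type and 1.68 between types. That was 2.06% and 0.986% of the short contacts of the smaller cell. The mean within a type includes the 19 pairs of shoot cells 3 and 4.

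**Figure D5:**
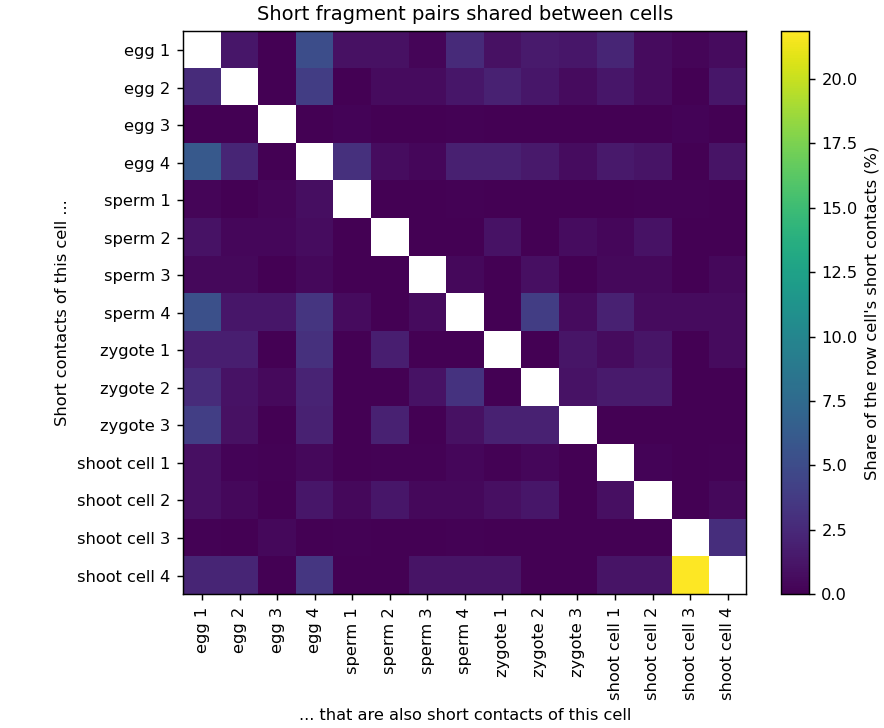
Share of the short contacts of the row cell that are also short contacts of the column cell (percent, colour; the diagonal is left blank). Shoot cell 4 against shoot cell 3 (21.8%) is the brightest field, and eggs 1 and 4 share 5.18% and 6.11%.

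Recurrent contacts gathered at 57 places, taking recurrent pairs within 20 kb of each other as 1 place, and 4 places held 29 of the 93 pairs. Coordinates are those of the files, whose genome build the sources used here do not name. The place with the most recurrent pairs (11), chr1:33519692-33539916, held 41 short contacts from 9 cells, 26 of them at 10 to 20 kb. They lay in eggs 1 and 4 (10 and 8 contacts), sperm 1 and 4 (9 and 4), all zygotes but zygote 1, and shoot cells 1, 3 and 4. At 10 to 20 kb, 17 of the combinations there were minus minus, in 6 cells, against 7 inward, 4 outward and 2 plus plus. The place chr9:4693345-4731766 had 7 recurrent pairs but more short contacts, 48 from 8 cells, 26 of them from egg 4 alone, which is 9.92% of the short contacts of that cell. Others were chr12:13377652-13403640, with 20 contacts from 9 cells, and chr12:20504919-20517002, with 18 contacts from 8 cells. Egg 3, with the most short contacts of any cell, had 0 at all 4 places, whereas egg 1, egg 4 and sperm 4 had contacts at every one.

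The 10 most recurrent pairs differed in how constant their strands were. The pair found in most cells, with fragments chr9:4707564-4709403 and chr9:4709474-4710567 (separation 1537 bp), occurred in eggs 1, 2 and 4, sperm 3 and 4 and shoot cells 1, 2 and 4. It was inward in 7 of the 8 cells, with reads starting within 500 bp of each other, and had 77 read pairs in all, 35 of them inward ones of egg 4. The pair of chr1:33521936-33522259 and chr1:33539325-33539636, 17383 bp apart, was minus minus in all 5 cells that had it. Its read pairs numbered 10 in egg 1, 2 in egg 4, 42 in sperm 4, 7 in zygote 2 and 1 in shoot cell 1. The same left fragment with chr1:33539637-33539916 was again minus minus in all 4 cells.

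Another 2 pairs were outward in every cell that had them. The fragment chr1:33061493-33062004 met chr1:33060528-33060744 in eggs 1 and 2, sperm 2 and zygotes 1 and 3. It met the neighbouring chr1:33060305-33060527 in egg 4, sperm 2, zygote 1 and shoot cell 2. A pair on chromosome 12, chr12:8538508-8539048 with chr12:8539569-8540089, was plus plus in all 4 of its cells, though egg 2, egg 4 and shoot cell 4 also had other combinations. The pair of chr12:13393743-13394093 and chr12:13396199-13397433 was inward in all 4 cells at a separation of 2898 bp, and shoot cell 1 had it also as plus plus. In contrast, chr4:32885580-32886086 with chr4:32886520-32887366 had all 4 combinations over 5 cells, and zygote 2 alone had all of them. The pair of chr9:18046837-18048113 and chr9:18048542-18049372 had 3 combinations in 4 cells. The last, chr1:18685007-18686570 with chr1:18686720-18686883, was inward in 3 of 4 cells and minus minus in zygote 1.

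Of the 93 recurrent pairs, 62 had a strand combination that was present in every cell with the pair. As 75 of the 93 were found in only 2 cells, a combination is easily shared. How many would share one by chance was not computed. Counted per cell, inward reads made up 37.1% and outward reads 29.3% of 283 combinations of recurrent contacts, against 22.1% and 43.7% of 6555 combinations of contacts found in 1 cell. The 2 sets hold different mixes of cells. Egg 3 had 1264 combinations, 919 of them outward, and only 11 of its 1183 contacts recurred. The part of this mix in the difference was not tested. Several of the recurrent pairs share a fragment and a place, so they are not independent.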

How the data were processed

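The authors deposited contact lists in NCC format, in which a line gives both ends of a read pair on the 12 chromosomes by position, restriction fragment and strand; the values are positions and not normalised. Per the labels' protocols the cells were digested with DpnII for 14 hours and ligated for 4.5 hours at low temperature. Aligner, contact caller and genome build: not given in the sources used here. Chromosome chain letters, in another deposited file, were not used.

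Read pairs were merged to distinct fragment pairs per cell and placed at fragment midpoints. The decay slope came from Poisson regression of counts in 8 logarithmic classes with the number of possible position pairs as offset. It and the placement measure were tested on simulated contacts. Fragment pairs were named by rule: the 10 found in the most cells, with ties broken by cell types, then read pairs, then position; chromosomes were named as highest or lowest in mean density. The measures and lists were chosen with earlier results of these data known. No test between groups was possible, so no feature was called. Alternatives are given in the closing section. Python 3.11.15, numpy 2.4.6, pandas 2.3.3, scipy 1.17.1 and matplotlib 3.10.9 were used.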

Additional observations from a re-analysis of the deposited data

Results flagged for a closer look

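Of 36 sets of 4 cells examined (12 measures in eggs, sperm and shoot cells; the 3 zygotes were not examined), 6 values lay far from the other cells of their group by the gap between neighbours against the range. Chance alone places about 1 in 20 sets beyond that limit. Egg 3 had 1183 short contacts, against 150 to 309 in the other eggs, and an outward share of 72.7%, against 29.5% to 34.9%. Sperm 1 had 953 short contacts, against 150 to 284 in the other sperm. Shoot cell 4 had an inward share of 51.0%, against 21.6% to 26.5%, an outward share of 23.5%, against 44.9% to 48.8%, and a recurrent share of 25.3%, against 1.49% to 3.62%. Shoot cell 4 also held the fewest short contacts (87), and the part of depth in its values was not tested. Its trans contacts were skewed in the same direction, with 44.3% inward and 11.5% outward, so its strand shares are not particular to short contacts.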

How the results depend on the processing

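With at least 2 read pairs the number of short contacts was 210.8 (eggs), 176.5 (sperm), 72.7 (zygotes) and 253.2 (shoot cells), so that shoot cells replaced eggs as the highest. Leaving out 1 cell in turn gave 240.3 to 584.7 in eggs, lowest without egg 3, and 216 to 483.7 in sperm, lowest without sperm 1. With a lower limit of 2 kb it was 137.2, 145.2, 65.7 and 116.8, with sperm the highest, and the short share was 19.5%, 30.2%, 17.7% and 20.9%. The order of the short share (sperm, shoot cells, eggs, zygotes) was the same in the 5 alternatives applied to every group. The zygote slope was -2.15 with at least 2 read pairs, -1.83 for same-strand contacts, -1.61 from 2 to 20 kb and -1.77 without inward contacts with close reads, an alternative chosen after seeing the data. The shoot cell slope was -2.19 from 2 to 20 kb; zygotes had the shallowest mean under the 5 alternatives that could change it. With a lower limit of 2 kb the same-strand share was 49.4% in zygotes and 39.8% in shoot cells, and with contacts of a single combination it was 22.9% in shoot cells. With genome length as the base the near-centromere ratio was 1.45 in sperm. The mean ratio crossed 1 in sperm (0.87 with at least 2 read pairs, 0.79 with a 1 Mb window), in shoot cells (1.04 with at least 2 read pairs) and in zygotes (1.10 without the place on chromosome 9, added after seeing the data). Zygotes had 0 short contacts at that place, so only their pairs under 1 kb, which were left out there too, changed the ratio. The egg mean lay between 1.31 and 1.45 in the 5 alternatives applied to every group. With every cell thinned to 87 short contacts (mean of 50 draws) the recurrent share fell by over 1.5 times in every group, to 4.07% (eggs), 1.86% (sperm), 3.92% (zygotes) and 2.76% (shoot cells). Shoot cells had the highest mean recurrent share in the main setting, but eggs did in all 5 alternatives computed for every group. No neighbouring fragments were present, so leaving them out changed nothing. No paired analysis was possible because no result comes from a test and the replicate numbers only name cells. At this depth a cell held 6 to 79 contacts of 5 to 20 kb, which limits the decay and placement there.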

Other observations

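The overlap of shoot cells 3 and 4 differed by class of pair. They shared 39 pairs under 1 kb (8.04% of those of shoot cell 4 and 1.93% of those of shoot cell 3), 19 short contacts (21.8% and 2.87%), 2 far cis contacts and 0 trans contacts, and 8 read start positions. Eggs 1 and 4 shared 95 pairs under 1 kb (8.03% of egg 1 and 13.2% of egg 4), 16 short contacts, 3 far cis contacts, 33 trans contacts (7.35% and 10.4%) and 146 read start positions. Over all cells, 11 read pairs had identical positions in 2 cells, and 0 of them were short contacts.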
